A study of Mus musculus with 22 samples.

Results

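The genes described here are 34 macrophage and myeloid genes: the receptors, phagocyte surface proteins, complement C1q chains, Fc receptor chains, class II antigen presentation genes, lysosomal and oxidase genes, general leukocyte genes and calgranulins by which tissue macrophages and related blood cells are usually recognised. They were chosen by symbol from a fixed list, and that list was drawn up with earlier results of these data known. All 34 were found among the 16556 genes of the deposited count table, and all 34 were among the 15064 genes that passed the filter on low counts. The tissue was whole kidney cortex of male C57BL/6J mice in which Crat, the gene for carnitine acetyltransferase, was removed from proximal tubule cells by a Cre recombinase under the Ggt promoter (Pt-CrAT), beside mice labelled fl/fl. Both genotypes were sampled in 3 settings: 12 months with the word LFD in the titles (3 libraries of each genotype), 15 months on chow (3 of each) and 24 months on chow (5 of each), 22 libraries in all. The 12-month setting differs from the others in the LFD label as well as in age, so age was compared only between 15 and 24 months.

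Resident kidney macrophages form a network around the tubules, depend on signalling through the Csf1r receptor, and often carry the fractalkine receptor Cx3cr1. They take up debris and immune complexes, make most of the body's C1q together with other tissue macrophages, and present antigen on class II molecules. Monocytes that enter the tissue from blood carry Ccr2, and neutrophils and inflammatory monocytes are rich in the calgranulins S100a8 and S100a9. Many genes of these cells are driven by the transcription factor PU.1, and class II genes by a factor complex that contacts a Y box, an inverted CCAAT element, in their promoters.

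The promoter stretches below are shown because Ctss, a protease gene that rose with age in both genotypes, and Cd53, a general leukocyte gene that was not called, carry the first element near their start, S100a9, which rose in fl/fl, lacks it, and H2-Aa and H2-Eb1 carry the second. The sequences are from RefSeq on GRCm38.p6, whose promoter table (250 bases before to 50 after a start) held 25 of the 34 members. They run 5′ to 3′ on the gene's strand, from 250 bases before the start to 20 after it. Capitals mark GAGGAA (PU.1 core) or the longer GAGGAAGT, which contains it, in the first 3 sequences. In the last 2 they mark CTGATTGG (Y box), and matches are on either strand.
Ctss, chr3:95526536-95526805, plus strand: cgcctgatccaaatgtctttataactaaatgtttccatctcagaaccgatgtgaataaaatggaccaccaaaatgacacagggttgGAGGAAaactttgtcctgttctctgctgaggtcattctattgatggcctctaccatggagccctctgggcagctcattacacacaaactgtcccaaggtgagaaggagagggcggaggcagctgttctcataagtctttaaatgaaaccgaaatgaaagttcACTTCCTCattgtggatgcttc
Cd53, chr3:106790130-106790399, minus strand: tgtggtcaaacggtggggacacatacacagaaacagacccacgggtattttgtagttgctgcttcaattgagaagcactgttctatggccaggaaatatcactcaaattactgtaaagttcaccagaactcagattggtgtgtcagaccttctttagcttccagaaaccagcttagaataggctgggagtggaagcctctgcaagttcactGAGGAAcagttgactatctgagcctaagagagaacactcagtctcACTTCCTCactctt
S100a9, chr3:90695702-90695971, minus strand: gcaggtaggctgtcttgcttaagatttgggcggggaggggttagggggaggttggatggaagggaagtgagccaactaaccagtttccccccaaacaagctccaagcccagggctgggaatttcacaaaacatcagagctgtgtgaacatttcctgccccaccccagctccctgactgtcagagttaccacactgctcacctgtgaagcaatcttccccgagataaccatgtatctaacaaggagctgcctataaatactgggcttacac
H2-Aa, chr17:34287804-34288073, minus strand: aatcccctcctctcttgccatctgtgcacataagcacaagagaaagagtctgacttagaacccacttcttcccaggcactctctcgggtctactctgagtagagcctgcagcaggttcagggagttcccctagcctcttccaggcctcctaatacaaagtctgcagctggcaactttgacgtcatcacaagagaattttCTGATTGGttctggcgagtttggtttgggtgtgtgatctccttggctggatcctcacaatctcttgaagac
H2-Eb1, chr17:34305617-34305886, plus strand: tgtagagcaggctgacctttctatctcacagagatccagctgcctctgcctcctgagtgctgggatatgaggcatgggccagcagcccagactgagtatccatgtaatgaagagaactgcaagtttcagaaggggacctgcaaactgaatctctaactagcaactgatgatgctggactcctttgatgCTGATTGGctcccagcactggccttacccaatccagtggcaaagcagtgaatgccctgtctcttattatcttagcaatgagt
GAGGAAGT lay across the start in Ctss, with its leftmost base at position -2, and began at position 7 in Cd53, both times on the opposite strand. GAGGAA was also found at -164 in Ctss and at -39 in Cd53, and not in the S100a9 window. The Y box began at -51 in H2-Aa and at -62 in H2-Eb1. The 25 members had 28 promoters in the table. Searched on both strands over the same 300 bases, GAGGAA was present for 14 of the 25 members, in 15 of their 28 promoters. It was in 28.3% of all 32851 promoters of the table. GAGGAAGT was present for 4 members (C1qc, Cd53, Ctss and S100a8), in 4 of the 28 promoters, and in 3.2% of all promoters. CTGATTGG was present for H2-Aa and H2-Eb1 alone among the 25, in 2 of the 28 promoters, and in 4.1% of all. These are matches of letters and no measurement of binding.

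Libraries are named by their titles, which begin with Wt for fl/fl and CrAT for Pt-CrAT and go on with the age, the diet word and a number. Library totals ran from 12175804 to 17447367 counts, with CrAT12MLFD345 at 53157575, and the members held 0.0631 to 0.169% of the counts. Every member except Ly86 had counts in every library, and 11 proximal tubule genes, which define the cortex, summed to 9093 to 70161 CPM. Levels are given as CPM (counts relative to library size after TMM scaling) and changes as log2 fold changes with their standard error (SE) from edgeR. A gene was called at a Benjamini-Hochberg adjusted p under 0.05 over all 15064 genes. Shared litters, cages or processing days are not recorded in the labels, and p-values measure the spread between these libraries. Crat itself was at 43.5 to 112 CPM in fl/fl and 28.4 to 38.9 CPM in Pt-CrAT libraries at 24 months. It overlapped at 12 months (54.0 to 98.0 against 42.4 to 81.1 CPM). At 15 months it ran against the labels, at 34.3 to 60.0 CPM in fl/fl and 63.1 to 72.6 CPM in the libraries labelled Pt-CrAT, so every direction drawn from those libraries rests on a label that Crat did not bear out. Whether the counted 3′ end lies inside the deleted part is not given in the sources used here. In whole cortex, a change in the number of myeloid cells and a change in RNA per cell cannot be told apart. Which cells a member's RNA came from was not measured.

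From 15 to 24 months, 7 members were called higher in fl/fl and 8 in the libraries labelled Pt-CrAT, and none was called lower. In fl/fl, 32 of 34 had a positive log2 fold change, as had 52.2% of all genes. The 7 called were Cx3cr1, Fcer1g, Ctss, Laptm5, Aif1, S100a8 and S100a9. Over all genes, 1.3% were called in that comparison, 0.823% higher and 0.478% lower. The members' median log2 fold change was 0.65, against 0.02 over all genes tested. In the libraries labelled Pt-CrAT, 32 of 34 were again positive, as were 54.3% of all genes. The 8 called were Cx3cr1, Adgre1, Cd14, C1qc, H2-Aa, Lyz2, Ctss and Laptm5. The background there was 11.3% of all genes, 5.61% higher and 5.71% lower, and the medians were 0.53 for the members and 0.04 over all genes. Cx3cr1, Ctss and Laptm5 were called in both, which is 42.9% of the fl/fl calls and 37.5% of the Pt-CrAT calls. The libraries of the 2 ages did not overlap, with 24 months higher, for 13 members in fl/fl (8.7% of all genes) and 8 in the libraries labelled Pt-CrAT (10.5% of all genes). Fcer1g, Lyz2, Ctss and Laptm5 belonged to both of these sets, and in fl/fl 1 member, Fcgr2b, was lower without overlap (8.26% of all genes). How often all genes were shared between genotypes, by call or without overlap, is not given here. The sharing is therefore not shown to be particular to the members.

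These counts moved with single libraries, and so did the share of all genes called. In fl/fl no member was called without Wt15Mchow205, Wt15Mchow225 or Wt15Mchow227 at 15 months, where 0.026, 0.344 and 0.0195% of all genes were called and the members' median was 0.70, 0.63 and 0.46. Without replicate Wt24Mchow154, Wt24Mchow164 or Wt24Mchow165 at 24 months 2 remained, Cx3cr1 and Ctss each time, with 0.453, 0.42 and 0.273% of all genes called. Among libraries labelled Pt-CrAT, 1 member was called without replicate CrAT15Mchow185 (Adgre1) or CrAT15Mchow204 (Cd14) at 15 months, where 2.73 and 2.55% of all genes were called and the median was 0.45 and 0.48. There were 5 without replicate CrAT24Mchow124 or CrAT24Mchow146 at 24 months (Adgre1, Cd14, C1qc, Lyz2 and Ctss both times), with 9.24 and 11.4% of all genes called. The labels give no batch or date, so a batch that followed age cannot be told apart from age.

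**Figure D1:**
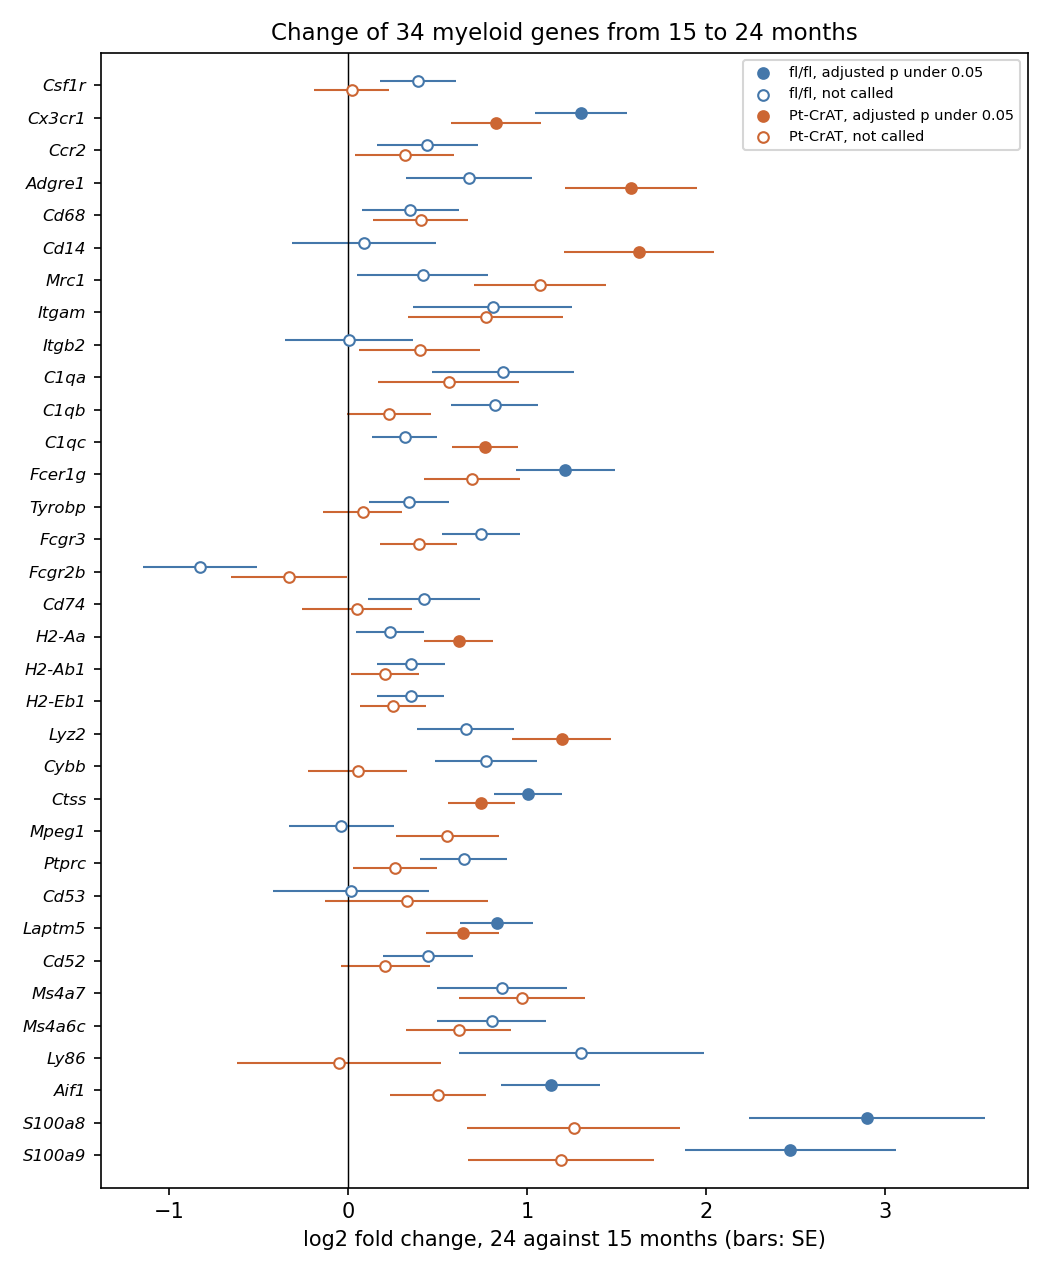
Log2 fold change of each of the 34 members from 15 to 24 months (horizontal axis, bars are SE) in fl/fl (blue) and in the libraries labelled Pt-CrAT (orange), filled where called by edgeR. Fcgr2b lies below 0 in both, S100a8 and S100a9 lie farthest to the right in fl/fl, and Adgre1 and Cd14 among the filled points in Pt-CrAT.

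Among the receptors for growth factors and chemokines, Cx3cr1 (ENSMUSG00000052336, chr9:119901616-120069879, minus strand) changed most. In fl/fl its level was 27.3, 21.99 and 18.9 CPM at 15 months and 48.3, 75.35, 56.7, 61.2 and 38.3 CPM at 24 months, so every older library was above every younger one. The log2 fold change was 1.30 (SE 0.26, edgeR adjusted p = 0.0178). For libraries labelled Pt-CrAT it went from 36.8, 32.6 and 25.7 CPM to 54.4, 66.5, 47.3, 33.96 and 79.2 CPM, with replicate CrAT24Mchow136 inside the younger range. That rise was 0.83 (SE 0.25, edgeR adjusted p = 0.0368), and it lost its call without replicate CrAT24Mchow123, CrAT24Mchow124, CrAT24Mchow146, CrAT15Mchow185 or CrAT15Mchow204. Csf1r, the receptor for Csf1 and Il34, gave 0.39 (SE 0.21) in fl/fl and 0.02 (SE 0.21) in Pt-CrAT, neither called. Ccr2, the receptor that brings monocytes in from blood, gave 0.44 and 0.32 and was not called.

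Of the 6 phagocyte surface genes, none was called in fl/fl and 2 in the libraries labelled Pt-CrAT. Adgre1 (ENSMUSG00000004730, chr17:57358691-57483527, plus strand), which encodes the macrophage marker F4/80, measured 0.903, 1.13 and 0.724 CPM at 15 months and 1.70, 3.27, 2.70, 2.25 and 4.01 CPM at 24 months there. It rose by 1.58 (SE 0.37, edgeR adjusted p = 0.00893), with no overlap between ages, and lost its call without CrAT15Mchow204. Its counts in these libraries were 12, 16 and 9 and then 26, 45, 51, 34 and 56. In fl/fl its change was 0.68 (SE 0.35, edgeR adjusted p = 0.262), from 1.68, 1.24 and 1.15 CPM to 3.28, 1.71, 2.64, 2.08 and 1.13 CPM. Cd14 (ENSMUSG00000051439, chr18:36725067-36726798, minus strand), a co-receptor for bacterial lipopolysaccharide, measured 0.452, 0.495 and 1.05 CPM at 15 months and 2.29, 2.69, 1.91, 2.05 and 1.29 CPM at 24 months in the same libraries. It rose by 1.62 (SE 0.42, edgeR adjusted p = 0.0161) on 6, 7 and 13 counts and then 35, 37, 36, 31 and 18 counts. In fl/fl it stood at 0.918, 0.893 and 1.46 CPM and then 2.10, 0.467, 1.13, 0.925 and 1.13 CPM, a change of 0.09 (SE 0.40). Without replicate CrAT15Mchow183 or CrAT15Mchow185, or without replicates CrAT24Mchow123 and CrAT24Mchow136 together, Cd14 lost its call. Mrc1, the mannose receptor, had a change of 1.07 in Pt-CrAT (SE 0.37, edgeR adjusted p = 0.0617) with no overlap between ages. Cd68 and the integrin subunits Itgam and Itgb2 were not called in either genotype.

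**Figure D2:**
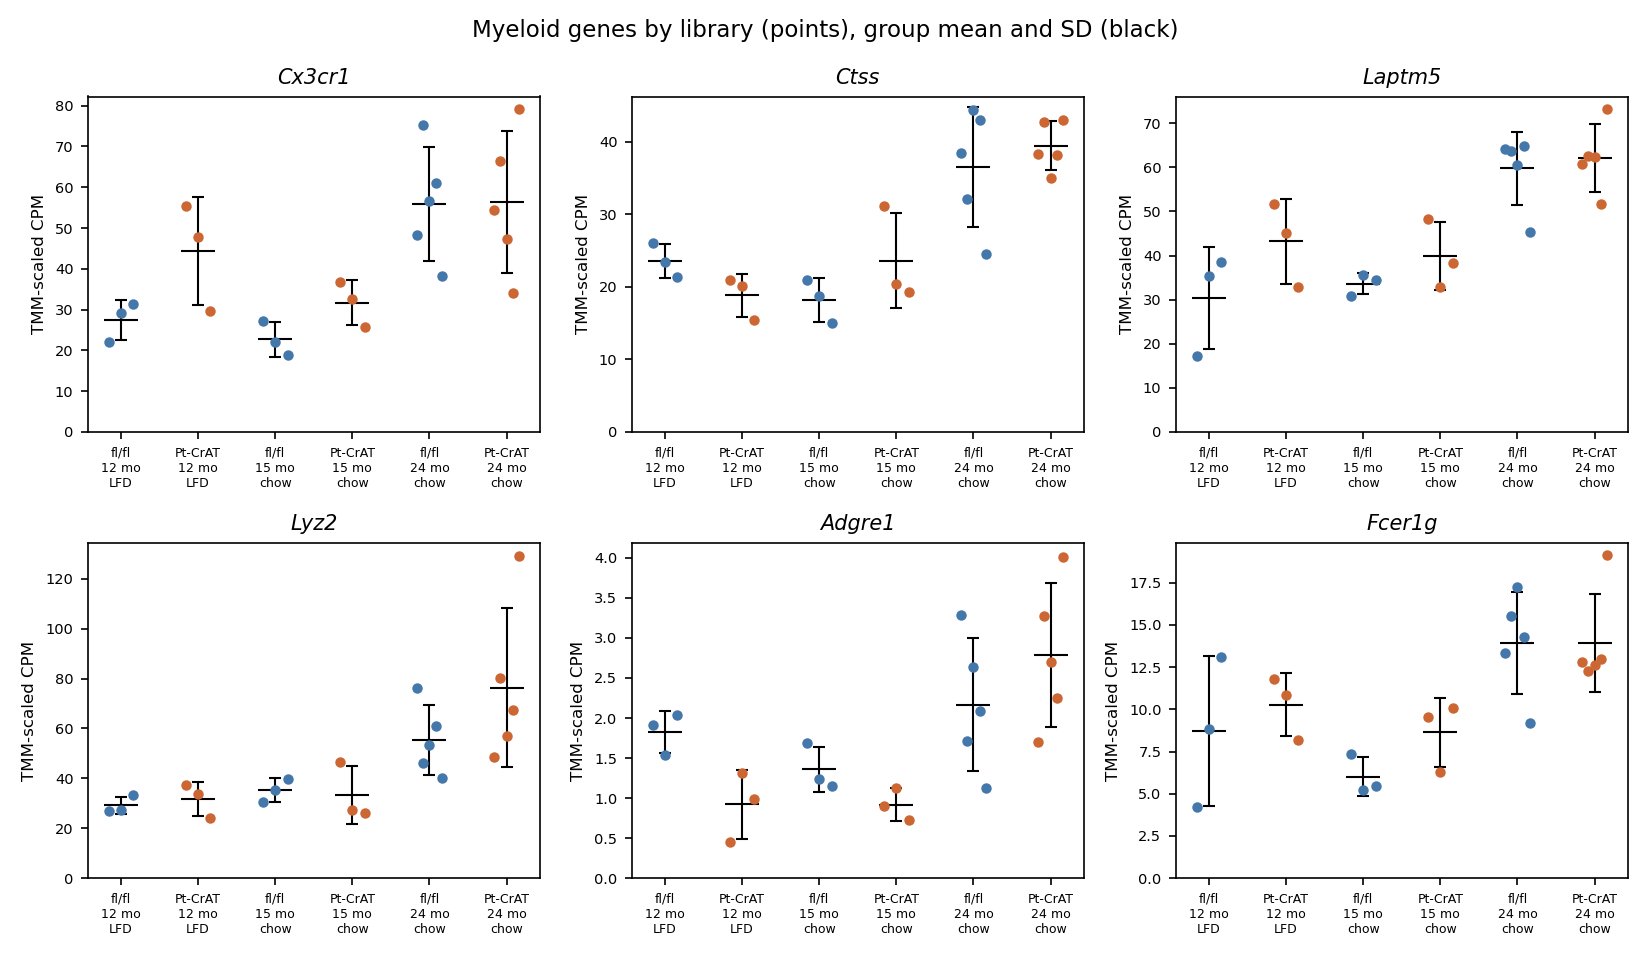
TMM-scaled CPM of 6 members in each library (points), with the group mean and SD in black and the 6 groups along the horizontal axis. In fl/fl, Ctss lies between 15.0 and 21.0 CPM at 15 months and at 24.5 CPM or more at 24 months.

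Of the 4 Fc receptor and adaptor genes, 1 was called in fl/fl and none in Pt-CrAT. Fcer1g (ENSMUSG00000058715, chr1:171229572-171234365, minus strand), the signalling chain shared by activating Fc receptors, was at 7.34, 5.22 and 5.46 CPM in fl/fl at 15 months and 13.3, 15.6, 17.3, 14.3 and 9.21 CPM at 24 months. It rose by 1.21 (SE 0.28, edgeR adjusted p = 0.0313) and lost its call without replicate Wt24Mchow154, Wt24Mchow164 or Wt24Mchow165. In the libraries labelled Pt-CrAT it went from 9.56, 6.30 and 10.1 CPM to 12.8, 12.3, 12.6, 13.0 and 19.1 CPM, again without overlap. That change was 0.69 (SE 0.27, edgeR adjusted p = 0.0955) and was not called. Fcgr3, an activating receptor, gave 0.74 in fl/fl (edgeR adjusted p = 0.0774) and 0.39 in Pt-CrAT. Fcgr2b, the inhibitory receptor of the family, was the only member below 0 in both genotypes. In fl/fl it stood at 10.6, 11.1 and 9.53 CPM at 15 months and 7.27, 2.88, 6.26, 5.09 and 7.73 CPM at 24 months, with no overlap between ages. Its change was -0.83 (SE 0.32, edgeR adjusted p = 0.147) in fl/fl and -0.33 (SE 0.33) in Pt-CrAT, and neither was called. Tyrobp, the partner chain of Trem2 and other myeloid receptors, gave 0.34 and 0.08 and was not called.

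The lysosomal and killing genes gave 3 calls over both comparisons. Ctss (ENSMUSG00000038642, chr3:95526786-95556403, plus strand) encodes cathepsin S, the protease that trims the class II invariant chain. In fl/fl it measured 21.0, 18.7 and 15.0 CPM at 15 months and 38.5, 32.0, 44.4, 43.0 and 24.5 CPM at 24 months. The rise was 1.001 (SE 0.19, edgeR adjusted p = 0.0145), and limma-voom and DESeq2 also called it. In the libraries labelled Pt-CrAT it went from 31.1, 20.4 and 19.2 CPM to 38.3, 42.7, 35.0, 38.2 and 43.0 CPM, a rise of 0.74 (SE 0.19, edgeR adjusted p = 0.0137). The ages did not overlap in either genotype. The fl/fl call was lost without Wt15Mchow205, Wt15Mchow225 or Wt15Mchow227. The Pt-CrAT call was lost without CrAT15Mchow185 or CrAT15Mchow204, and without replicates CrAT24Mchow123 and CrAT24Mchow136 together. Lyz2 (ENSMUSG00000069516, chr10:117277331-117282321, minus strand), the lysozyme of phagocytes, rose by 1.19 in the libraries labelled Pt-CrAT (SE 0.28, edgeR adjusted p = 0.0093). Its levels there were 46.7, 27.2 and 26.3 CPM and then 48.6, 80.1, 56.8, 67.3 and 129 CPM, the last in replicate CrAT24Mchow146. The call was lost without CrAT15Mchow185 or CrAT15Mchow204. In fl/fl Lyz2 went from 30.4, 35.4 and 39.9 CPM to 76.4, 46.1, 53.3, 61.2 and 40.3 CPM, also without overlap, with a change of 0.65 (SE 0.27, edgeR adjusted p = 0.171). Cybb, the catalytic subunit of the phagocyte oxidase, gave 0.77 and 0.05, and Mpeg1, which encodes the pore-forming perforin-2, gave -0.04 and 0.55. None of these was called. Lyz2, Fcgr3, Fcgr2b, Ms4a6c and the class II genes have close relatives in the genome, and how the authors assigned shared reads is not given in the sources used here.

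Of the 4 general leukocyte genes, Laptm5 (ENSMUSG00000028581, chr4:130913125-130936141, plus strand), a lysosomal membrane protein of blood cells, was called in both genotypes. It stood at 30.9, 35.6 and 34.4 CPM in fl/fl at 15 months and 64.2, 63.8, 60.5, 64.8 and 45.4 CPM at 24 months, a rise of 0.83 (SE 0.21, edgeR adjusted p = 0.0445). Among libraries labelled Pt-CrAT it went from 48.3, 33.0 and 38.4 CPM to 60.7, 62.7, 62.2, 51.8 and 73.3 CPM, a rise of 0.64 (SE 0.20, edgeR adjusted p = 0.0436). No library at 24 months fell into the range at 15 months in either genotype. Both calls were close to the threshold. The fl/fl call was lost with limma-voom and without replicate Wt24Mchow154, Wt24Mchow164 or Wt24Mchow165, and the Pt-CrAT call without replicate CrAT24Mchow123, CrAT24Mchow124, CrAT24Mchow135, CrAT24Mchow146, CrAT15Mchow185 or CrAT15Mchow204 or without replicates CrAT24Mchow123 and CrAT24Mchow136 together. Ptprc, the leukocyte antigen CD45, gave 0.64 (edgeR adjusted p = 0.139) and 0.26, and Cd52 and Cd53 were not called either. In the remaining macrophage group, Aif1 (ENSMUSG00000024397, chr17:35170991-35176068, minus strand), which encodes the actin-binding protein Iba1, rose in fl/fl by 1.13 (SE 0.28, edgeR adjusted p = 0.0426). It went from 11.9, 12.8 and 12.1 CPM to 28.2, 27.4, 29.4, 32.0 and 17.4 CPM. The call was lost with limma-voom and without replicate Wt24Mchow154, Wt24Mchow164 or Wt24Mchow165. For libraries labelled Pt-CrAT the Aif1 change was 0.50 (SE 0.27, edgeR adjusted p = 0.227). Ms4a7 gave 0.86 and 0.97 and Ms4a6c 0.80 and 0.62, while Ly86, with 0 to 34 counts a library, gave 1.30 and -0.05; none was called.

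Among the 4 class II genes, every change was positive and 1 of the 8 tests gave a call. H2-Aa (ENSMUSG00000036594, chr17:34282744-34287823, minus strand), the alpha chain of the I-A molecule, rose by 0.62 in the libraries labelled Pt-CrAT (SE 0.19, edgeR adjusted p = 0.0412). Its levels were 56.5, 38.0 and 38.4 CPM at 15 months and 54.9, 84.7, 69.6, 59.0 and 71.3 CPM at 24 months, so replicate CrAT24Mchow123 lay inside the younger range. It lost its call without replicate CrAT24Mchow124, CrAT24Mchow135, CrAT24Mchow146, CrAT15Mchow185 or CrAT15Mchow204. In fl/fl the change was 0.23 (SE 0.19). Cd74, the invariant chain, gave 0.42 and 0.05, H2-Ab1 0.35 and 0.20, and H2-Eb1 0.35 and 0.25, none of them called. H2-Aa and H2-Eb1 are the members whose Y boxes are shown above.

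The calgranulins had the largest fold changes of all members in fl/fl. S100a8 (ENSMUSG00000056054, chr3:90668978-90670035, plus strand) stood at 6.43, 4.60 and 2.54 CPM at 15 months and 22.4, 19.1, 51.7, 65.0 and 11.04 CPM at 24 months. It rose by 2.90 (SE 0.66, edgeR adjusted p = 0.0372). S100a9 (ENSMUSG00000056071, chr3:90692632-90695721, minus strand), whose protein pairs with that of S100a8, went from 2.29, 1.44 and 0.999 CPM to 8.94, 4.82, 12.1, 14.0 and 4.15 CPM, a rise of 2.47 (SE 0.59, edgeR adjusted p = 0.0412). The same 2 libraries, replicates Wt24Mchow164 and Wt24Mchow165, were highest for both genes, and both calls were lost with limma-voom and without replicate Wt24Mchow154, Wt24Mchow164 or Wt24Mchow165. In the libraries labelled Pt-CrAT, S100a8 went from 10.7, 13.2 and 12.0 CPM to 56.0, 9.30, 12.2, 47.0 and 18.8 CPM. Its change was 1.26 (SE 0.59, edgeR adjusted p = 0.176), with 2 libraries inside or below the younger range. S100a9 went from 3.69, 5.45 and 4.02 CPM to 18.9, 3.71, 3.45, 15.95 and 8.16 CPM, a change of 1.19 (SE 0.52, edgeR adjusted p = 0.144). There replicates CrAT24Mchow123 and CrAT24Mchow136 stood high for both genes and replicates CrAT24Mchow124 and CrAT24Mchow135 lay near the younger libraries. In replicates CrAT24Mchow123 and CrAT24Mchow136 the sum of 11 proximal tubule markers was low, and it is given with the other cell types below. Kap, the largest part of that sum in the other Pt-CrAT libraries at 24 months, was at 4565.5 and 2852.8 CPM, against 18928 to 28807 CPM. Slc34a1, Slc5a2, Slc22a6, Slc7a13, Slc27a2 and Acsm3 were also lowest in these replicates. The remaining listed genes differed between these replicates. Lrp2, Cubn and Slc22a8 were lowest of the group in CrAT24Mchow123 (859.69, 22.872 and 291.89 CPM). Cubn and Slc22a8 were highest in CrAT24Mchow136 (49.646 and 379.1 CPM), where Lrp2 lay inside the range of the group (1269.2 CPM). Slc5a12 was highest in CrAT24Mchow123 (174.78 CPM) and lowest in CrAT24Mchow136 (80.096 CPM).

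**Figure D3:**
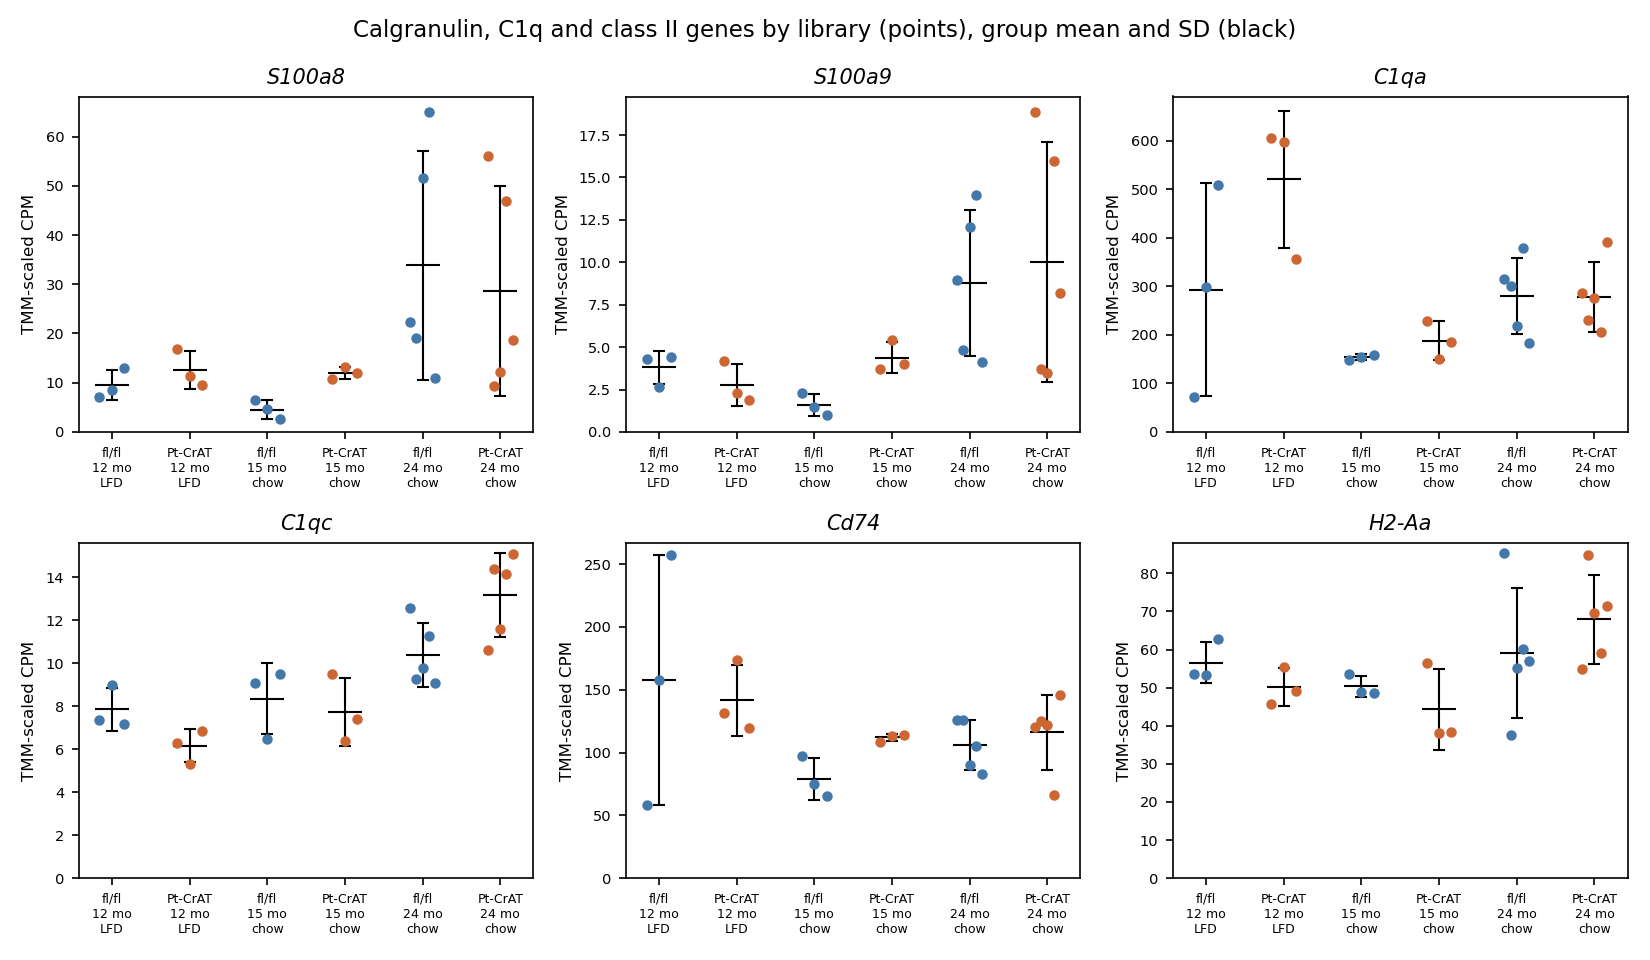
TMM-scaled CPM of the calgranulins, C1qa, C1qc, Cd74 and H2-Aa in each library (points), with group mean and SD in black. S100a8 spreads from 9.30 to 65.0 CPM among the 24-month libraries, and C1qa from 72.1 to 606 CPM at 12 months.

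C1q is built from 3 chains whose genes lie side by side on chromosome 4, and all 3 were positive with age in both genotypes. C1qc (ENSMUSG00000036896, chr4:136889804-136893065, minus strand) was the one called, in the libraries labelled Pt-CrAT, where it went from 9.48, 6.37 and 7.40 CPM to 10.6, 14.4, 11.6, 14.2 and 15.1 CPM. It rose by 0.76 (SE 0.18, edgeR adjusted p = 0.0104) with no overlap between ages, and lost its call without CrAT15Mchow185 or CrAT15Mchow204. In fl/fl the C1qc change was 0.32 (SE 0.18, edgeR adjusted p = 0.304). C1qb gave 0.82 in fl/fl (SE 0.24, edgeR adjusted p = 0.0774) and 0.23 in Pt-CrAT. C1qa gave 0.86 (SE 0.40, edgeR adjusted p = 0.216) and 0.56 (SE 0.39). In fl/fl both C1qa and C1qb were higher in every library at 24 months than in any at 15 months.

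The chains did not keep a fixed ratio across libraries. On chow, 1 read of C1qc came with 14.5 to 33.7 reads of C1qa. At 12 months the number was 9.80, 33.1 and 70.8 in fl/fl and 96.2, 112 and 51.9 in Pt-CrAT, so 4 of the 6 libraries lay above every chow library and replicate Wt12MLFD326 below every one. C1qb reads per C1qc read ran from 0.785 to 2.04 on chow and from 0.946 to 3.77 at 12 months. Replicate Wt12MLFD326 had the lowest C1qa (72.1 CPM, where Wt12MLFD327 and Wt12MLFD368 had 299 and 509 CPM) and the lowest Cd74 of all 22 libraries (58.1 CPM). It had the highest Fcgr2b (17.5 CPM) and Mpeg1 (5.52 CPM). Without that library, as with all 22, no member was called between genotypes at 12 months by edgeR.

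**Figure D4:**
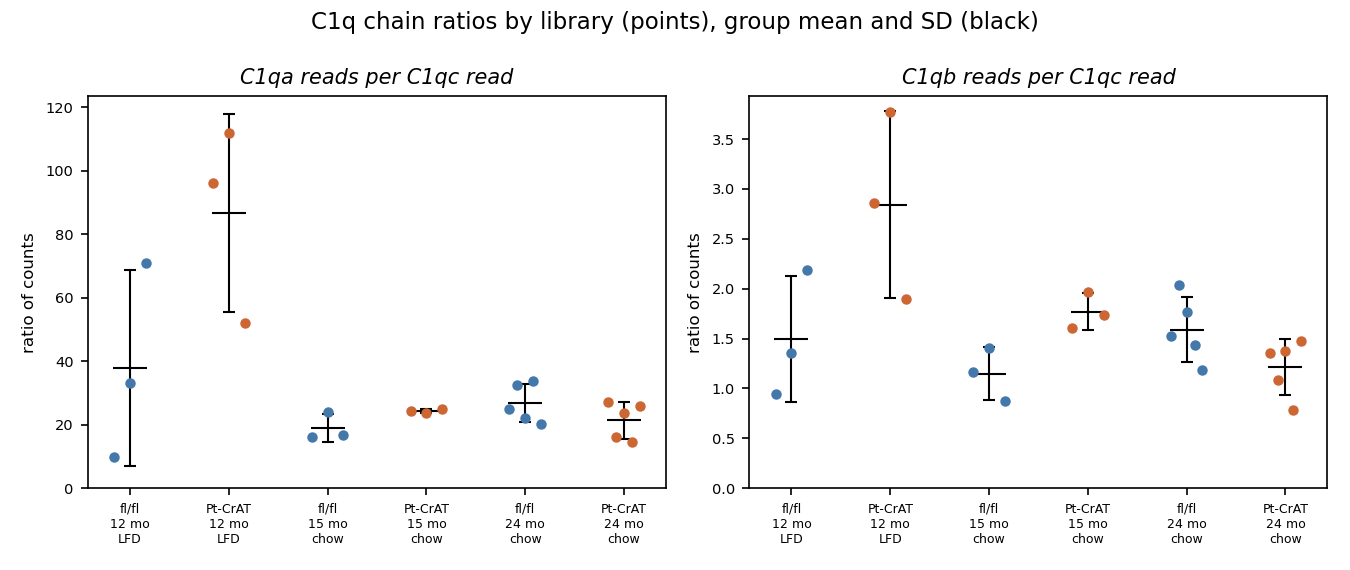
Reads of C1qa (left) and C1qb (right) for each read of C1qc in each library (points), with group mean and SD in black. The 12-month libraries spread from 9.80 to 112 for C1qa, and the chow libraries from 14.5 to 33.7.

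Whether the age change itself differed between genotypes was tested directly, and no member was called by edgeR (0% of all genes, 1 member at unadjusted p under 0.05, 0 with DESeq2 and 0 with limma-voom). The 2 age comparisons share no library. The smallest p was that of Cd14, with a difference of 1.54 (SE 0.58, Pt-CrAT minus fl/fl, edgeR adjusted p = 0.29). S100a8 followed at -1.64 (SE 0.84, edgeR adjusted p = 0.351), then Cybb at -0.72, Adgre1 at 0.91, C1qc at 0.45 and C1qb at -0.59. The calls of Adgre1, Cd14, C1qc, H2-Aa and Lyz2 in 1 genotype, and of Fcer1g, Aif1 and the calgranulins in the other, are therefore not shown to differ between genotypes.

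The loss of Crat from proximal tubule cells was compared with fl/fl within each setting. At 12 months no member was called by edgeR, against 16.4% of all genes (8.41% higher, 7.95% lower). There were 6 members at unadjusted p under 0.05. DESeq2 called Fcgr2b and Mpeg1, both lower, beside 3328 genes, which is 24.5% of those it gave an adjusted p. With limma-voom 0 were called, beside 12.9% of all genes. Of the 34, 17 were higher and 17 lower, with a median of -0.03 against 0.00 over all genes. Mpeg1 measured 5.52, 2.34 and 2.44 CPM in fl/fl libraries and 2.28, 1.40 and 1.92 CPM in the others, a difference of -0.86 (SE 0.33, edgeR adjusted p = 0.0708) with no overlap. Fcgr2b measured 17.5, 7.28 and 9.02 CPM against 5.39, 3.45 and 8.09 CPM (-0.95, SE 0.36, edgeR adjusted p = 0.0693). Adgre1 measured 1.92, 1.54 and 2.04 CPM against 0.457, 1.31 and 0.990 CPM (-0.95, SE 0.39, edgeR adjusted p = 0.0922). Csf1r went the other way, at 40.1, 83.0 and 95.9 CPM in fl/fl libraries and 115, 105 and 96.4 CPM in the others (0.53, SE 0.23, edgeR adjusted p = 0.111). Cx3cr1 gave 0.68 (edgeR adjusted p = 0.0865) and Laptm5 0.50 (edgeR adjusted p = 0.118). None of these passed the threshold. The libraries did not overlap for 1 member higher (16.3% of all genes) and 4 lower (13.8% of all genes).

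Single libraries decided the count at 12 months. Without replicate Wt12MLFD368 it was 5 (Csf1r, C1qa, C1qb and Laptm5 higher, Mpeg1 lower), without replicate CrAT12MLFD345 it was 3 (Cx3cr1, Fcgr2b and Laptm5), and without replicate Wt12MLFD327 it was 2 (Fcgr2b and Mpeg1). All genes were then called at 21.4, 22.8 and 18.8%, so the members' share was under that of all genes each time. Markers of other cells differed with genotype in these libraries. Of 7 adipocyte genes tested, 6 were called higher in Pt-CrAT, and the summed level of the list was 134 to 276 CPM in fl/fl and 353 to 884 CPM in Pt-CrAT. Called lower were 3 of 8 fibroblast or pericyte genes, 2 of 11 proximal tubule genes and 2 of 7 immediate-early genes, which respond to tissue handling. The immediate-early list summed to 170 CPM in Wt12MLFD326, the library with the highest Mpeg1 and Fcgr2b, to 68.3 and 74.7 CPM in the remaining fl/fl libraries, and to 44.4 to 68.4 CPM in Pt-CrAT. The part of these lists in the member values was not tested.

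At 15 months 26 of the 34 members and 50.75% of all genes were higher in the libraries labelled Pt-CrAT, where Crat was also higher. The members' median was 0.25, against 0.01 over all genes. Replicate CrAT15Mchow183 was the highest of its group for 23 members, and without it the median was 0.12 and 20 of 34 were higher; without CrAT15Mchow185 the median was 0.38. No member was called by edgeR (0% of all genes), DESeq2 or limma-voom, and 3 had an unadjusted p under 0.05. The libraries did not overlap for 8 members higher (11.6% of all genes) and for Adgre1 lower (12.7% of all genes). Cybb stood at 33.2, 22.3 and 17.1 CPM in fl/fl and 44.2, 41.7 and 38.4 CPM in the libraries labelled Pt-CrAT (0.78, SE 0.31, edgeR adjusted p = 0.581). S100a9 gave 1.47 (SE 0.64) and S100a8 1.40 (SE 0.69), each without overlap, from the levels given above. Ly86 gave 1.53 (SE 0.74), Ptprc 0.55 and Cd52 0.57, all at the same adjusted p of 0.581 in edgeR. The 8 were C1qb, Cd74, Cybb, Cd52, Ms4a6c, Aif1, S100a8 and S100a9. Urothelium markers were lower for 5 of 5 genes, with summed levels of 11.3 to 13.5 CPM in fl/fl and 3.22 to 4.89 CPM in the other libraries. Those of red blood cells were lower for 5 of 6, at 1804 to 1917 and 1094 to 1277 CPM, and none of either list was called. Their part in the member values was not tested.

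At 24 months, with 5 libraries of each genotype, 23 of 34 members and 7966 of 15064 genes were higher in Pt-CrAT. The members' median was 0.11, against 0.02 over all genes. Without Wt24Mchow168 the median was 0.02, against 0.02 over all genes, and 19 were higher. It was 0.04 without CrAT24Mchow146, 0.07 without CrAT24Mchow124, 0.17 without CrAT24Mchow136, 0.19 without Wt24Mchow164 and 0.22 without CrAT24Mchow123 and CrAT24Mchow136 together. With limma-voom it was 0.06, and with library totals alone 0.23, against 0.14 over all genes. None was called by edgeR (0% of all genes), DESeq2 or limma-voom, and 4 had an unadjusted p under 0.05. Mpeg1 measured 3.21, 3.42, 2.41, 2.39 and 1.76 CPM in fl/fl libraries, then 4.92, 4.58, 3.87, 4.96 and 4.23 CPM in Pt-CrAT. It was the only member without overlap (0.737% of all genes lay higher without overlap), with a difference of 0.77 (SE 0.25, edgeR adjusted p = 0.461). Itgb2 gave 0.75 (SE 0.30, edgeR adjusted p = 0.468), Cd14 0.82 (SE 0.33, edgeR adjusted p = 0.468) and C1qc 0.34 (SE 0.15, edgeR adjusted p = 0.508). Lyz2 gave 0.46 and Ms4a6c 0.47, with overlapping libraries. All 6 phagocyte surface genes had positive differences, while C1qa and C1qb lay at -0.01 and -0.05. Of the other cell types, 9 of 11 proximal tubule genes were lower in Pt-CrAT (the list summed to 33566 to 42143 CPM in fl/fl and to 9093 to 38280 CPM in Pt-CrAT), as were 6 of 6 red blood cell and 6 of 7 adipocyte genes, while 7 of 8 fibroblast or pericyte genes were higher. None of these was called, and their part in the member values was not tested.

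**Figure D5:**
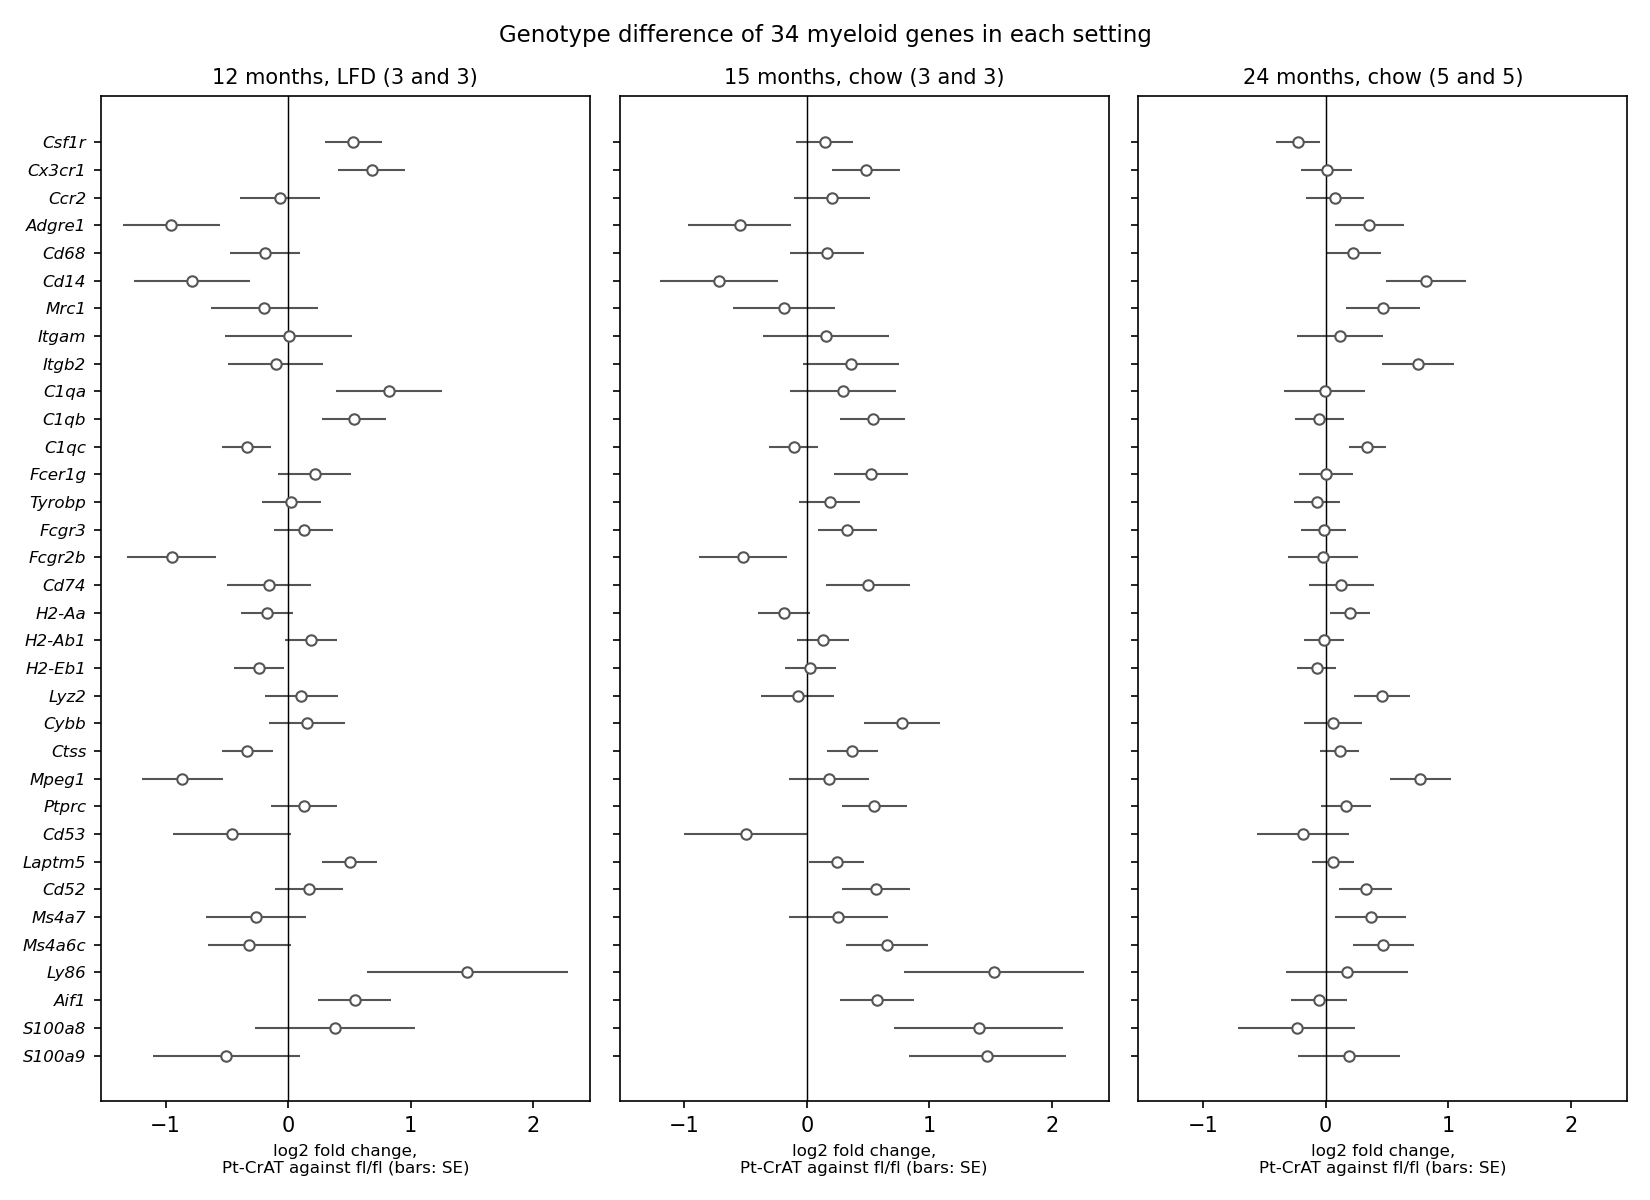
Log2 fold change of each of the 34 members, Pt-CrAT against fl/fl (horizontal axis, bars are SE), at 12 months with LFD, 15 months on chow and 24 months on chow. No point is called by edgeR, and Mpeg1 and Cd14 lie on the negative side at 12 months and the positive side at 24 months.

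Averaged over the 3 settings, 27 of 34 members and 7655 of 15064 genes were higher in Pt-CrAT. The members' median of that average was 0.15, against 0.005 over all genes. None of the members was called by edgeR (0.0266% of all genes), DESeq2 or limma-voom. The median was -0.03 at 12 months, 0.25 at 15 months and 0.11 at 24 months, and Crat did not bear out the labels at 15 months. Averaged over 12 and 24 months alone, an alternative chosen after seeing the data, the median was 0.07, 25 of 34 were higher and none was called by edgeR (0.186% of all genes). Leaving out CrAT15Mchow183 gave 0.09 and leaving out Wt12MLFD368 gave 0.22 for the 3 settings. There were 7 at unadjusted p under 0.05, led by Cx3cr1 at 0.39 (SE 0.15, edgeR adjusted p = 0.176). Ly86 gave 1.05 (edgeR adjusted p = 0.177), Fcgr2b -0.50 (edgeR adjusted p = 0.184), C1qb 0.34 (edgeR adjusted p = 0.197), Cd52 0.36 (edgeR adjusted p = 0.2) and Laptm5 0.27 (edgeR adjusted p = 0.217). A test of whether the genotype difference varied among settings called Mpeg1 (edgeR adjusted p = 0.0495, 5.07% of all genes called). Its differences were -0.86 at 12 months, 0.18 at 15 months and 0.77 at 24 months. No member was called with limma-voom or with RLE size factors. When 1 of the 22 libraries was left out, Mpeg1 was called in 6 fits, those without Wt12MLFD327, Wt12MLFD368, CrAT12MLFD345, CrAT15Mchow183, CrAT15Mchow204 or Wt24Mchow145. After Mpeg1 came Cd14 (edgeR adjusted p = 0.0813), Adgre1 (edgeR adjusted p = 0.126), C1qc (edgeR adjusted p = 0.136), Csf1r (edgeR adjusted p = 0.172) and Ctss (edgeR adjusted p = 0.202).

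Other genes of the same pathways were read from lists of ligands, transcription factors, class II loading, oxidase, Fc and lectin signalling, scavenger, complement receptor and lipid-handling genes, of which 71 were in the table and 67 were tested. With age in fl/fl, 2 were called, both higher, beside 1.3% of all genes. Ccl6, a myeloid chemokine, went from a mean of 4.92 CPM (SD 2.45, n = 3) to 11.7 CPM (SD 3.06, n = 5), a rise of 1.25 (SE 0.28, edgeR adjusted p = 0.0275). Stab1, a scavenger receptor of sinusoidal endothelium and macrophages, rose by 0.82 (edgeR adjusted p = 0.0459). Both lost their calls without replicate Wt15Mchow225, Wt15Mchow227, Wt24Mchow154, Wt24Mchow164 or Wt24Mchow165, and Stab1 also without Wt15Mchow205. Spi1, which encodes PU.1 and is named here outside the rule after its values were seen, gave 1.01 in fl/fl (SE 0.29, edgeR adjusted p = 0.0703) and 0.51 in Pt-CrAT (edgeR adjusted p = 0.236).

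With age in the libraries labelled Pt-CrAT, 4 of the 67 were called higher and 5 lower, beside 5.61% of all genes higher and 5.71% lower. Runx1, a transcription factor of blood cells, rose by 1.41 (SE 0.30, edgeR adjusted p = 0.00561). The complement C5a receptor gene C5ar1 rose by 1.61 (SE 0.36, edgeR adjusted p = 0.00671), from 0.527 CPM (SD 0.0656, n = 3) to 1.64 CPM (SD 0.495, n = 5), and kept its call without any 1 library. Il34, a ligand of Csf1r, fell by 1.09 (edgeR adjusted p = 0.00671), from 115 CPM (SD 26.2, n = 3) to 54.0 CPM (SD 16.6, n = 5), without overlap. In fl/fl the Il34 change was -0.01, and the difference between genotypes was not called (edgeR adjusted p = 0.29). Lpl, lipoprotein lipase, fell by 0.87 (edgeR adjusted p = 0.00985). Runx1 lost its call without replicate CrAT15Mchow185, Il34 without replicate CrAT15Mchow204, and Lpl without either.

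At 12 months 6 of the 67 were called higher and 5 lower in Pt-CrAT, beside 16.4% of all genes. Mertk, a receptor for apoptotic cells, was at 232 CPM in fl/fl (SD 38.5, n = 3) and 424 CPM in Pt-CrAT (SD 91.5, n = 3), a difference of 0.87 (SE 0.17, edgeR adjusted p = 0.00672) that was lost without replicate CrAT12MLFD328. Cd163, a scavenger receptor for haemoglobin, was called (edgeR adjusted p = 0.00921) on 1, 1 and 0 counts in fl/fl and 8, 15 and 105 counts in Pt-CrAT, so no fold is given. The 105 counts were in CrAT12MLFD345, whose library total was 53157575, against 13002919 and 14279947 for CrAT12MLFD328 and CrAT12MLFD337. Stab1 was higher by 0.95 (edgeR adjusted p = 0.0114) and Ctsd, a lysosomal protease, by 0.72 (edgeR adjusted p = 0.0153), and both lost their calls without replicate Wt12MLFD326, CrAT12MLFD328 or CrAT12MLFD337. At 15 and 24 months none of the 67 was called by edgeR, with 3 and 7 at unadjusted p under 0.05. The smallest p at 15 months was that of Clec7a, a receptor for fungal glucan (0.98, SE 0.27, edgeR adjusted p = 0.581), and at 24 months that of the chemokine Ccl2 (2.91, SE 0.74, edgeR adjusted p = 0.38), whose mean was 0.0742 CPM (SD 0.0551, n = 5) in fl/fl libraries, with 0 in some, against 0.605 CPM (SD 0.27, n = 5).

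Markers of other cells moved with the age comparisons. In the libraries labelled Pt-CrAT, 5 of 11 proximal tubule genes were called lower from 15 to 24 months. The summed level of the 11 went from 43622 to 50738 CPM down to 9093 to 38280 CPM. It was lowest in replicates CrAT24Mchow136 and CrAT24Mchow123, where Kap and other listed genes, but not all of them, were low. In the same comparison 4 of 5 urothelium genes and 4 of 8 fibroblast or pericyte genes were called higher. So were 3 of 6 genes of a medulla and thin limb list (Aqp1, Fxyd4, Slc14a2, Cryab, Akr1b3 and Aqp2). That list is no measure of how much medulla the samples held. The neutrophil list, with 4 of 6 genes tested and 1 called, summed to 1.13 to 3.75 CPM at 15 months and 3.997 to 14.7 CPM at 24 months. Its genes did not move alike. Lcn2 ran from 0.151 to 0.354 CPM at 15 months and from 1.38 to 8.08 CPM at 24 months. The highest Lcn2 was in CrAT24Mchow136, the library where the list summed to 14.7 CPM. The sum is therefore no measure of neutrophils alone. Mmp9 ran from 0.724 to 2.83 CPM and then from 1.07 to 2.95 CPM. Ltf was at 0 and then at 0.286 to 0.524 CPM, and Ngp had 0 counts in 11 of 22 libraries. In fl/fl all 4 neutrophil genes were higher with none called (1.77 to 3.37 CPM, then 4.08 to 7.25 CPM), 1 of 5 B or plasma cell genes was called higher, and 1 of 11 proximal tubule genes was called lower. The part of these lists in the member values was not tested. Without replicates CrAT24Mchow123 and CrAT24Mchow136, 5 members were called in the libraries labelled Pt-CrAT (Cx3cr1, Adgre1, C1qc, H2-Aa and Lyz2), beside 2.8% of all genes. Libraries also differed within groups. At 24 months replicate CrAT24Mchow146 was highest of its group for 22 of the 34 members, and replicate Wt24Mchow168 was lowest of its group for 23.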

How the data were processed

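RNA of 22 kidney cortex samples was extracted with TRIzol and made into Lexogen QuantSeq 3′ FWD libraries, per the labels' protocols. The authors deposited raw read counts per gene and a DESeq2-normalized signal (counts divided by a size factor), the latter used here only for symbols and to check the size factors. The submitters' processing notes name R 3.4.3, DESeq2 1.18.1 and GRCm38. The aligner, counter, strand setting and annotation were not given in the sources used here. No total of a gene was under 66 counts.

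Counts were fitted with edgeR 4.0.16 in R 4.3.3: TMM scaling, filterByExpr over 6 groups, 1 robust quasi-likelihood model over all 22 libraries (16 residual degrees of freedom), 8 contrasts, Benjamini-Hochberg adjustment over 15064 genes, threshold 0.05. The biological coefficient of variation was 20.5%. The 32 within-group pairs all had a chi-square of at least 10.2 for each degree of freedom, so no library was counted as a repeat. No molecular identifiers were counted, so reads can be copies of 1 molecule. The code was tested on simulated data. Alternatives were RLE scaling, library totals, DESeq2 1.42.0, limma-voom (limma 3.58.1), other filters, fits on fewer groups and leaving out each library. Coordinates are from GENCODE M21 (GRCm38). Members called were described in full, otherwise up to 6 by smallest p, and up to 4 related genes a contrast. Members, lists and tests were chosen with earlier results of these data known. A deposited table of count sums was not used here.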

Additional observations from a re-analysis of the deposited data

Results flagged for a closer look

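4 levels among the 24-month groups of 5 stood apart from the other libraries of their group by Dixon's criterion. Chance meets that criterion in about 1 in 20 groups. With 34 members in each genotype at that age, several such levels are expected by chance alone. These 4 are therefore not shown to exceed chance. Ccr2 was at 11.3 CPM in fl/fl replicate Wt24Mchow145 and at 13.1 CPM in Pt-CrAT replicate CrAT24Mchow124, each the highest of its group. Laptm5 was at 45.4 CPM in fl/fl replicate Wt24Mchow168, the lowest of its group, and Fcer1g at 19.1 CPM in Pt-CrAT replicate CrAT24Mchow146, the highest.

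The genotype difference of Mpeg1 varied among the 3 settings (edgeR adjusted p = 0.0495), from -0.86 at 12 months to 0.77 at 24 months on the log2 scale.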

How the results depend on the processing

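No paired analysis was possible because no replicate number is shared between groups. The counts of members called that differed by over 1.5 times from those reported were as follows, and the cause was not tested. For the genotype difference at 12 months, 1 member was called with library totals alone (Mpeg1, beside 17.8% of all genes), against 0 (16.4%). With DESeq2 2 were called, beside 24.5% of the genes it gave an adjusted p. For the variation among settings 0 were called with RLE size factors, limma-voom, no count filter, a mean of at least 5 CPM, without replicates Wt12MLFD326 and CrAT12MLFD328, and without replicates CrAT24Mchow123 and CrAT24Mchow136, against 1. For age in fl/fl, limma-voom called 3 (0.943% of all genes) against 7 (1.3%). For age in Pt-CrAT, library totals alone gave 13 (18.0% of all genes) and leaving out replicates CrAT24Mchow123 and CrAT24Mchow136 gave 5 (2.8%), against 8 (11.3%). Leaving out each library in turn gave 0 to 5 members for the genotype difference at 12 months, 0 to 2 for the variation among settings, 0 to 9 for age in fl/fl and 1 to 8 for age in Pt-CrAT. Fitting only the libraries compared lost the calls of S100a8 in fl/fl and Lyz2 in Pt-CrAT. No called member changed sign under any alternative run. Library totals alone shifted the median of all genes by -0.12 at 12 months, 0.14 at 24 months, 0.29 for age in Pt-CrAT and 0.19 for the difference in age change; the members' median for age in Pt-CrAT was then 0.76. At 12 months, with 3 libraries in a group, the widest SEs were those of Ly86 (0.82), S100a8 (0.65) and S100a9 (0.60).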
